A study of Saccharomyces cerevisiae with 15 samples.

Results

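The genes described here are the 32 genes of the yeast 26S proteasome that carry the names SCL1, PRE1 to PRE10, PUP1 to PUP3, RPT1 to RPT6, RPN1 to RPN3 and RPN5 to RPN13, together with RPN4, the gene of the transcription factor that drives them. They were chosen by systematic name, with no use of measured values, and all 33 were found among the 6600 gene identifiers of the table. The series held 15 RNA libraries of Saccharomyces cerevisiae BY4741, a haploid laboratory strain of mating type a, with 3 libraries in each of 5 groups. The growth medium was YNB (yeast nitrogen base) containing β-glycerophosphate, and control cells were not treated. The other groups spent 1 h with a rare earth metal, either the light element lanthanum (La) at 50 µM (EC10) or 160 µM (EC50), or the heavy element ytterbium (Yb) at 6 µM (EC10) or 8 µM (EC50). EC10 and EC50 are the doses with a 10 and a 50 percent effect. No label states whether each library had a culture of its own, and p-values therefore reflect the spread between these libraries alone, which could be technical.

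The proteasome degrades proteins that carry a chain of ubiquitin. Its 20S core is a barrel of stacked rings: the outer α rings form the gate, and the inner β rings hold the proteolytic sites of Pre3, Pup1 and Pre2. The 19S regulatory particle caps the barrel. Its base holds a ring of ATPases, Rpt1 to Rpt6, which unfold the substrate, and the large scaffold proteins Rpn1 and Rpn2, and its lid holds the deubiquitinating enzyme Rpn11. Rpn4 binds a short promoter element, PACE, in front of proteasome genes and is itself degraded by the proteasome, so that in yeast a shortfall of proteasome activity is known to raise Rpn4 and then the subunit genes.

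PACE (the letters GGTGGCAAA, searched on both strands) was looked for in the window from 250 bases before to 50 bases after the first coding base of each gene in the RefSeq annotation of build R64. It was found before 27 of the 32 subunit genes (84.4%) and in 71 of 5897 windows of the same length over all genes (1.20%). Each of the 27 windows held a single site, which began 84 to 183 bases before the first coding base (median 120), with 19 sites in the sense and 8 in the antisense orientation. The sites of the 7 subunit genes that were called in a comparison with control below are shown with 10 bases on either side. They run 5′ to 3′ on the gene's own strand, with the element in capitals, so that an antisense site reads as its reverse complement.
PRE8: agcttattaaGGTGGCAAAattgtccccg
PRE9: ttaccctgcaGGTGGCAAAaaatttatag
PRE1: aaatctttacGGTGGCAAAaaataaagaa
PRE4: tggtttagaaTTTGCCACCttaaatacgt
RPT2: gtttttctccGGTGGCAAAtgtctctttt
RPT3: ctgaaagtaaGGTGGCAAAatagtaaatc
RPN12: ctacacattaTTTGCCACCcattgaaatt
These stretches lie at chrXIII:86841-86869 (minus strand), chrVII:761223-761251 (plus), chrV:177683-177711 (plus), chrVI:249959-249987 (minus), chrIV:437906-437934 (plus), chrIV:1261495-1261523 (plus) and chrVI:252398-252426 (plus) of R64, in the order given.

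Of the 5 subunit genes without the full element, 3 held its 8-letter core GTGGCAAA, which lies within PACE and was present before 30 of 32 subunit genes (93.8%) and in 143 of the 5897 windows (2.42%). They are shown in the same way, with the core in capitals, because RPN8 among them stood apart from the other subunits in its spread between libraries.
PRE5: ctattatagaGTGGCAAAattaaaaatt
PUP1: acccggccgaGTGGCAAAataccaaaaa
RPN8: ggatacctcaGTGGCAAAtcgttactca
They lie at chrXIII:901553-901580 (plus strand), chrXV:631891-631918 (minus) and chrXV:817085-817112 (minus). RPN10 and RPN13, the genes of ubiquitin receptors, held neither sequence. The window of RPN4 held neither, nor the letters TCCGCGGA (the Pdr1/Pdr3 element, in 0.203% of all windows), TTACTAA or its reverse complement TTAGTAA (the Yap1 element, 7.51%) or CCCCT (the stress element, 22.0%). The window ended 250 bases before the first coding base, so elements farther upstream of RPN4, or of any gene, were not searched. A match is a description of the letters and not of binding.

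**Figure D1:**
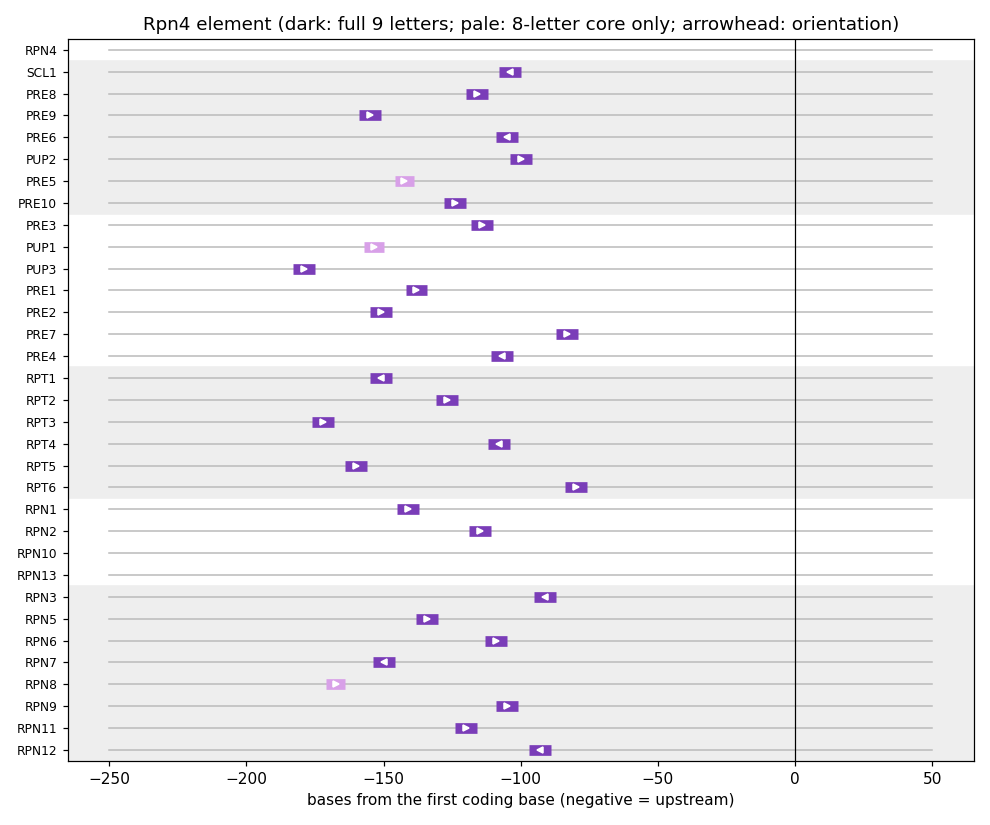
Position of the Rpn4 element before each gene, in bases from the first coding base (horizontal axis), for RPN4 and 32 subunits grouped by subcomplex (shaded bands). Dark boxes are full PACE sites, pale boxes are sites with the 8-letter core only and arrowheads give the orientation. The 27 full sites begin 84 to 183 bases upstream, and RPN4, RPN10 and RPN13 have none in the window searched.

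The libraries held between 5629666 and 7183175 reads, and all 33 genes passed the filter for the test, a mean of at least 10 normalized counts. A normalized count is a read count divided by the library's size factor. Intervals from replicates cover the spread between libraries, and depth did not limit these genes, whose lowest mean over the 15 libraries was 932 normalized counts (RPN4). The strain's deleted genes URA3 and MET17 were at 0 in all 15 libraries, where a count of 0 allows 2.70 to 3.67 normalized counts per library, and LEU2 had a mean of 0.318 in Yb EC10 and 0 elsewhere. HIS3, deleted only in part, had a mean of 417. Among the mating type a genes MFA1, MFA2, STE2 and BAR1 the summed level was 13675 to 15808 in control and 7898 to 12190 in the exposed libraries, while the 3 mating type α genes summed to between 50.2 and 86.0 and 4 meiotic genes to between 74.7 and 120 over all libraries.

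Levels were compared between genes per kilobase of coding length. The scaffold gene RPN2 had the lowest mean over all libraries among subunits, 860.0 normalized counts per kb, followed by RPN1 with 963, and PRE1, a β ring gene, the highest, 2961. RPN4 lay below every subunit with 584. The α ring genes lay between 2017 (PRE8 and PRE10) and 2410 (SCL1), the β ring genes between 1399 (PUP1, a proteolytic subunit) and 2961, and the ATPase genes between 1266 (RPT3) and 2124 (RPT2). In the lid, 7 of 8 genes lay between 1353 (RPN3) and 1486 (RPN12), and RPN8 stood above them with 2282. RPN13, a ubiquitin receptor gene of the base, reached 2401. Neighbours in this order often differed by less than their spread: in control, RPN6 and RPN5 had the same mean of 1424 per kb.

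**Figure D2:**
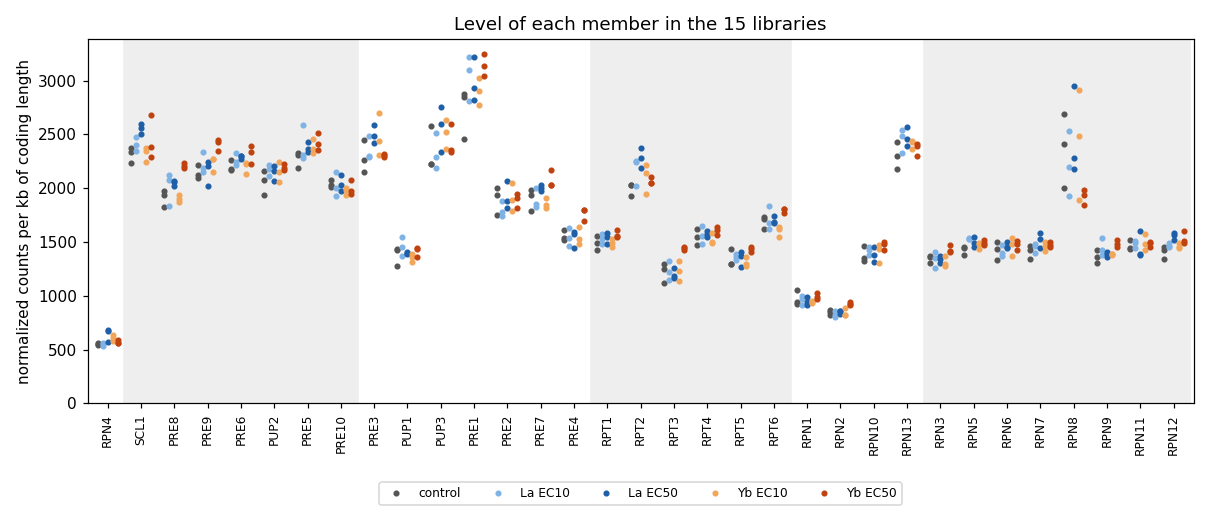
Level of each gene in each of the 15 libraries, in normalized counts per kb of coding length (vertical axis), with 1 point per library coloured by group and subcomplexes as shaded bands. The mean over the libraries ranged from 860.0 (RPN2) to 2961 (PRE1) among subunits and was 584 for RPN4; the points of RPN8 are spread more widely than those of the other genes.

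The subunit mRNAs also varied little between libraries of the same group. Their within-group SD, on the log2(normalized count + 1) scale, had a median of 0.06, against 0.11 over the 5567 genes tested. The latter include genes with a mean as low as 10 normalized counts, and the SD was not compared with that of genes at a like level. RPN8 was the exception, with an SD of 0.22, higher than 87.5% of all genes tested, and the next among the 33 was PUP3 with 0.10. Summed over the 32 subunits, the control libraries held 55009, 54688 and 56120.4 normalized counts. The Yb EC50 libraries held 57886, 58447 and 58039, and their mean was 1.05 times the control mean. The La EC50 libraries held 56329, 57005 and 58693, a mean 1.04 times that of control, and both EC50 groups lay wholly above the control range. The mean was 1.02 times control in La EC10 and 1.01 times in Yb EC10. As a share of all reads, without size factors, the same genes took 0.812% ± 0.008 (SD, n = 3) in control, 0.873% ± 0.008 in La EC10, 0.903% ± 0.009 in La EC50, 0.864% ± 0.040 in Yb EC10 and 0.938% ± 0.018 in Yb EC50. Genes at large also rose on such a scale. With equal totals of reads, 31.5% of all genes tested were called higher at Yb EC50 and 8.48% lower (limma, adjusted p under 0.05). In these bulk samples, fewer cells of a type and less RNA per cell cannot be told apart.

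With Yb at EC50, 5 of the 33 genes rose relative to control and none fell. They were PRE8, PRE9, PRE1 and PRE4 of the core and RPT3 of the ATPase ring, and the largest rise was 1.18-fold (RPT3). Over all 5567 genes tested, 20.6% were called higher and 20.2% lower in this comparison, so the members were called higher at a lower share than genes at large (5 of 33) and lower at a share of 0. Called means an adjusted p under 0.05 from limma's moderated test, with Benjamini-Hochberg adjustment over all genes tested. The log2 change was above 0 for 30 of 33 members and for 2612 of the 5567 genes, and its median was 0.08 for the members and -0.02 for all genes. The Yb EC50 libraries lay wholly above the control libraries for 15 members, against 25.2% of all genes, and wholly below for 1, RPN8, against 26.9%. At an unadjusted p under 0.05 there were 9 members. The share of all genes at an unadjusted p was not taken, here or below, so such counts have no background to be read against. In edgeR 4 members and in DESeq2 6 were called, all higher, against 19.5% and 19.0% of all genes called higher. The limma count was 1 without control library 3 and 2 without control library 1 or Yb EC50 library 4 or 5.

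RPT3 (YDR394W, chrIV:1261681-1262967, plus strand) encodes an ATPase of the base. It read 1439, 1609 and 1665 normalized counts in the control libraries and 1860.3, 1833 and 1869.8 in Yb EC50. In La EC10 it read 1473, 1703 and 1574, in La EC50 1519.7, 1623 and 1504, and in Yb EC10 1708, 1467 and 1585. The Yb EC50 libraries thus lay above all 12 others, which overlapped among themselves. The log2 change of Yb EC50 against control was 0.24 ± 0.07 (SE), with an adjusted p of 0.016 from limma, and the call was lost without control library 1.

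PRE8 (YML092C, chrXIII:85987-86739, minus strand) encodes an α ring subunit. It read 1488, 1457 and 1372 normalized counts in control and 1662, 1648 and 1681 in Yb EC50. The log2 change was 0.21 ± 0.06 (limma, adjusted p 0.0116), the groups did not overlap, and the call was lost without control library 3. The other groups lay at 1379 to 1597, overlapping control at La EC10 and Yb EC10 and above it at La EC50. PRE9 (YGR135W, chrVII:761392-762168, plus strand), the gene of the α ring subunit that yeast can do without, read 1624, 1720.0 and 1646 in control and 1891, 1899 and 1822 in Yb EC50. Its change was 0.17 ± 0.06 (limma, adjusted p 0.0295). In the β ring, PRE1 (YER012W, chrV:177835-178431, plus strand) read 1701, 1716 and 1467 in control and 1942, 1875 and 1815 in Yb EC50, a change of 0.21 ± 0.08 (limma, adjusted p 0.0377). PRE4 (YFR050C, chrVI:249066-249866, minus strand) read 1234, 1290.0 and 1214 in control and 1437, 1442 and 1359 in Yb EC50, a change of 0.18 ± 0.06 (limma, adjusted p 0.0306). These groups did not overlap for PRE9, PRE1 or PRE4, and each of these calls was lost without 3 or 4 of the single libraries, control library 3 among them.

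The proteolytic β ring genes did not pass the test in this comparison: the log2 change was 0.01 ± 0.07 for PRE3, 0.04 ± 0.06 for PUP1 and -0.01 ± 0.07 for PRE2, the lowest of that ring. In the α ring PRE10 was lowest with -0.03 ± 0.06, and among the ATPase genes RPT2 with 0.05 ± 0.06. All 4 non-ATPase genes of the base lay above 0, between 0.04 ± 0.06 (RPN1) and 0.13 ± 0.05 (RPN2), and RPN2 missed the threshold at an adjusted p of 0.0558 (limma). In the lid the highest was RPN9 with 0.13 ± 0.06 and the lowest RPN8 with -0.29 ± 0.15. Leaving RPN8 aside, the 95% interval of every member in this comparison lay above -0.16 (PRE2) and below 0.40 (RPT3), so at this spread a fall or rise beyond these values was outside the interval of each of these 32 genes.

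With La at EC50, 3 of the 33 genes rose, RPN4, RPT2 and RPN12, and none fell. Over all genes 12.6% were called higher and 13% lower. The median log2 change of the members was 0.05, against 0.01 over all genes, and 28 of 33 were above 0, against 2912 of the 5567 genes. On leaving out single libraries, from 20 (without control library 1) to 29 (without control library 3) of the 33 were above 0. None of the 3 genes was among the 5 that rose with Yb, which allows no conclusion with so few genes called. RPT2 (YDL007W, chrIV:438047-439360, plus strand) encodes an ATPase that takes part in opening the gate of the core. It read 2669, 2539 and 2664 normalized counts in control, 2942, 2659.8 and 2955 in La EC10 and 3000.5, 2877 and 3119 in La EC50, against 2813, 2560.4 and 2907 in Yb EC10 and 2691, 2769 and 2692 in Yb EC50. La EC50 lay above control without overlap, by 0.19 ± 0.06 on the log2 scale (limma, adjusted p 0.0361). RPN12 (YFR052W, chrVI:252505-253329, plus strand), a lid gene, read 1107, 1197 and 1175 in control and 1253, 1293 and 1307 in La EC50, a change of 0.15 ± 0.05 (limma, adjusted p 0.0496). That call stood at the threshold and was lost on leaving out any library other than 1 of the La EC10 libraries, and RPT2 lost its call without any 1 of the 3 control libraries or of 2 of the La EC50 libraries. The highest members of the other subcomplexes did not pass: SCL1 of the α ring at 0.14 ± 0.06, PRE1 of the β ring at 0.14 ± 0.08 and RPN13 of the base at 0.10 ± 0.06. The lowest were PRE10 at 0.00 ± 0.06, PRE4 at -0.02 ± 0.06, RPT3 at -0.02 ± 0.07, RPN1 at -0.03 ± 0.06 and RPN11 at -0.02 ± 0.06. The La EC50 libraries lay wholly above control for 7 members, against 21.7% of all genes, and wholly below for 0, against 21.0%. At an unadjusted p under 0.05 there were 4 members, and edgeR called 1 and DESeq2 3, all higher. In edgeR 11.4% and in DESeq2 11.6% of all genes were called higher. The limma count was 0 without control library 2 or 3 or La EC50 library 10 or 12 and 1 without control library 1.

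**Figure D3:**
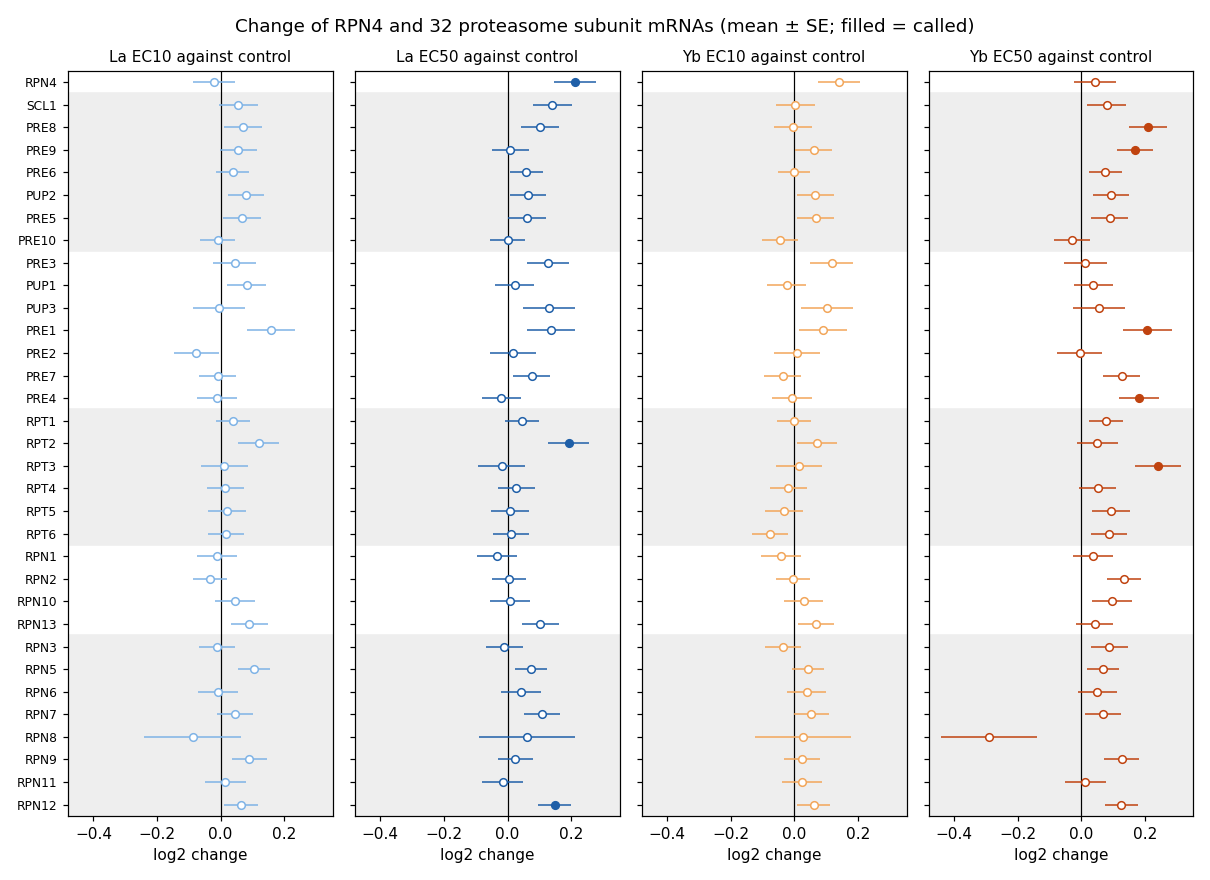
Log2 change of each of the 33 genes (rows, with subcomplexes as shaded bands) in each exposed group against control; points are the limma estimate, bars its SE, and filled points are called at an adjusted p under 0.05. The called points are RPN4, RPT2 and RPN12 at La EC50 and PRE8, PRE9, PRE1, PRE4 and RPT3 at Yb EC50; RPN8 has the widest bars.

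At the lower doses no member was called in limma. With La at EC10, 10.2% of all genes were called higher and 10.1% lower, and with Yb at EC10 15.2% and 14%. For the 33 genes the counts at an unadjusted p under 0.05 were 0 and 0, and edgeR and DESeq2 called 0 as well. The member changes ran from -0.09 (RPN8) to 0.16 ± 0.08 (PRE1) at La EC10, with a median of 0.04 against 0.01 over all genes. At Yb EC10 they ran from -0.08 (RPT6) to 0.14 ± 0.07 (RPN4), with a median of 0.02 against 0.00. The highest upper bound of a 95% interval was 1.25-fold at La EC10 (PRE1) and 1.27-fold at Yb EC10 (RPN8). The comparisons with control share the same 3 control libraries, so they are not independent of each other.

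The step from EC10 to EC50 gave no called member for either metal in limma. For La, 0.988% of all genes were called higher and 0.790% lower at EC50, and 1 member had an unadjusted p under 0.05. For Yb these shares were 0.701% and 0.395%, and 7 members had an unadjusted p under 0.05. In both steps edgeR called 0 members. DESeq2 called 0 for La and 1, PRE8, higher for Yb, where it called 2.35% of all genes higher. PRE8 changed by 0.21 ± 0.06 in the Yb step (limma, adjusted p 0.0634). The Yb EC50 libraries lay wholly above those of Yb EC10 for 14 members, against 12.2% of all genes, and the median change of the members was 0.07 against 0.02 over all genes. In the La step the libraries lay wholly above for 3 members, against 11% of all genes, and the medians were 0.01 and 0.01. The difference between the steps of the metals passed for 3.25% of all genes and for 0 members in limma, and 6 members had an unadjusted p under 0.05. For this difference edgeR called 0 members and DESeq2 1, RPN4, higher, where DESeq2 called 4.20% of all genes higher.

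Between the metals at EC50, PRE4 and RPT3 were lower with La than with Yb, and 0 members were higher. Over all genes 10.8% were called higher and 11.2% lower. PRE4 differed by -0.20 ± 0.06 (limma, adjusted p 0.0316) and RPT3 by -0.26 ± 0.07 (limma, adjusted p 0.0194), with no overlap of the libraries. Without La EC50 library 12 or Yb EC50 library 4 neither gene was called, and without La EC50 library 10 or Yb EC50 library 5 or 6 a single one was. The other genes called against control at EC50 differed between the metals by 0.17 ± 0.07 (RPN4), 0.14 ± 0.06 (RPT2), 0.02 ± 0.05 (RPN12), -0.11 ± 0.06 (PRE8), -0.16 ± 0.06 (PRE9) and -0.07 ± 0.08 (PRE1), and none of these differences passed the test. At EC10 no member was called between the metals in limma, against 1.71% of all genes higher and 4.19% lower with La, with 1 member at an unadjusted p under 0.05 and 0 called by edgeR or DESeq2. Doses at matched effect levels differ in concentration, 50 µM against 6 µM and 160 µM against 8 µM. The F test over the 5 groups passed for 3 of 33 members, RPN4 (adjusted p 0.036), PRE8 (0.0387) and RPT3 (0.0382), and for 43.1% of all genes; on leaving out single libraries it passed for 0 to 4 members.

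The counts at EC50 depended on scaling. With each library scaled to the same total of reads in place of the deposited size factors, the median of all genes moved to 0.11 at both La EC50 and Yb EC50, and that of the members to 0.15 and 0.21. On that scale 12 members were called higher at La EC50 and 25 at Yb EC50, against 21.5% and 31.5% of all genes, and 0 were called lower, against 7.47% and 8.48%. Among the 25 were 6 of 6 ATPase genes, while RPN4, PRE10, the proteolytic PRE3, PUP1 and PRE2, and PUP3, RPN8 and RPN11 were not called. Relative to the median of all genes, the members at Yb EC50 thus stood above it on both scales.

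RPN4 (YDL020C, chrIV:415113-416708, minus strand) read 898, 879 and 871 normalized counts in control and 889, 873 and 846 in La EC10. It read 1079.9, 914 and 1085 in La EC50, 929.5, 975 and 1017 in Yb EC10 and 938, 897 and 895 in Yb EC50. The La EC50 and Yb EC10 libraries all lay above the control range, whereas La EC10 and Yb EC50 overlapped it. The rise at La EC50 was 0.21 ± 0.07 on the log2 scale, a fold of 1.16 (limma, adjusted p 0.0279). It was lost without control library 2 or 3 or La EC50 library 10 or 12, where the change was at lowest 0.17. At Yb EC10 the change was 0.14 ± 0.07 (limma, adjusted p 0.122) and at Yb EC50 0.04 ± 0.07 (adjusted p 0.622). La EC50 against La EC10 gave 0.23 ± 0.07 (limma, adjusted p 0.0857), and the difference between the dose steps of La and Yb was 0.33 ± 0.09 (adjusted p 0.0611). At La EC50, where RPN4 rose, the subunit genes called higher were RPT2 and RPN12. Of the 5 subunit genes that rose at Yb EC50, none was called at La EC50, and their changes there were 0.10 (PRE8), 0.01 (PRE9), 0.14 (PRE1), -0.02 (PRE4) and -0.02 (RPT3). So few genes were called in either comparison that the lack of a shared one allows no conclusion.

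Among 6 genes of known regulators of Rpn4, PDR1, PDR3, YAP1, HSF1, UBR2 and MUB1, only MUB1 was called against control. Mub1 acts with the ubiquitin ligase Ubr2 in the degradation of Rpn4. MUB1 (YMR100W) read 642, 663 and 611 normalized counts in control, 642, 584 and 618 in La EC10, 488, 522 and 483 in La EC50, 563, 547 and 586 in Yb EC10 and 528, 539 and 490.4 in Yb EC50. It fell at La EC50 by 0.36 ± 0.06, at Yb EC10 by 0.17 ± 0.06 and at Yb EC50 by 0.30 ± 0.06 on the log2 scale (limma, adjusted p 0.000622, 0.0469 and 0.00172). It was also lower at La EC50 than at La EC10, by -0.31 ± 0.06 (limma, adjusted p 0.0198). The call at Yb EC10 was lost in 11 of 15 fits that left out a single library, and that between the La doses in 4.

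**Figure D4:**
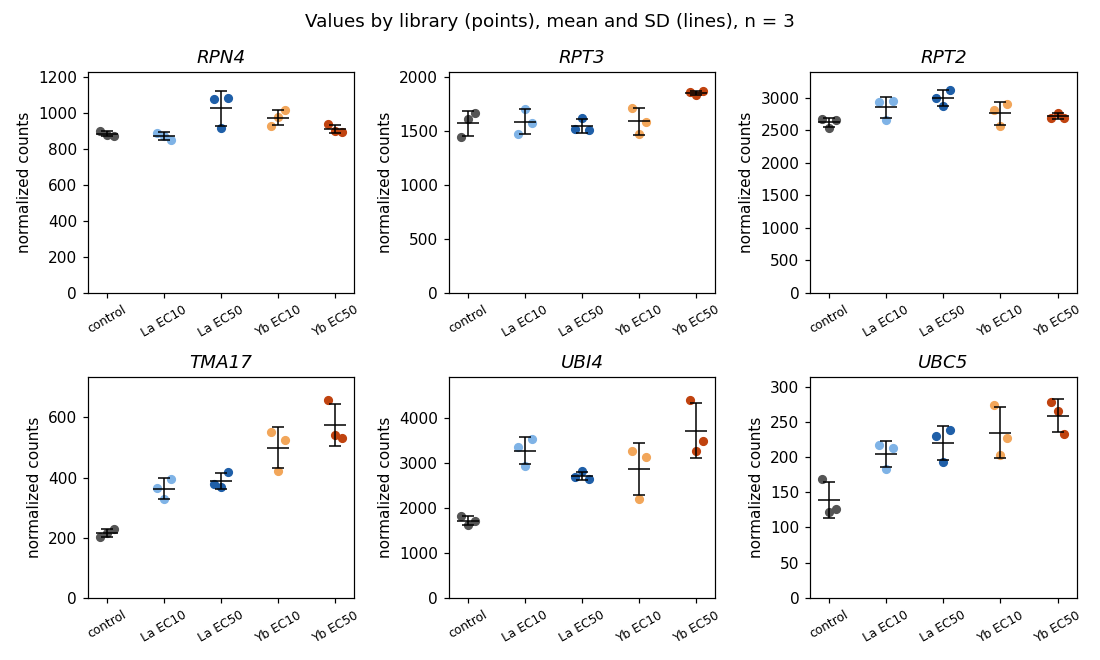
Normalized counts (vertical axes, from 0) of RPN4, RPT3, RPT2, TMA17, UBI4 and UBC5 in each library (points) by group, with the mean and SD of 3 libraries (lines). RPT3 is above the other groups at Yb EC50 only, RPN4 and RPT2 are highest at La EC50, and TMA17, UBI4 and UBC5 lie above control in all 12 exposed libraries.

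RPN8 (YOR261C, chrXV:815915-816931, minus strand), a lid gene whose protein pairs with Rpn11, behaved unlike the other subunits. It read 2737, 2032 and 2448 normalized counts in control, 2239, 1963 and 2576 in La EC10, 2219.7, 2323 and 3000.4 in La EC50, 1927, 2531 and 2960.5 in Yb EC10 and 1872, 2016 and 1971 in Yb EC50. The Yb EC50 libraries lay below all control libraries, and the other groups overlapped control. The change at Yb EC50 did not pass in limma (-0.29 ± 0.15, adjusted p 0.136), but RPN8 was called lower when the fit held only the groups compared. SEM1 (YDR363W-A), which encodes a further small lid protein and was not in the member list, moved by library in the same way. It read 1647, 1179 and 1548 in control and 864, 1054 and 867 in Yb EC50, a fall of 0.64 ± 0.18 on the log2 scale (limma, adjusted p 0.0109). The 684 genes tested with a coding length under 500 bases also had a lower median in Yb EC50, with deviations from their mean over all libraries of -0.11, -0.05 and -0.12 on the log2 scale, and a higher one in control library 1 (0.11), La EC10 library 13 (0.06), La EC50 library 12 (0.08) and Yb EC10 libraries 8 and 9 (0.12 and 0.08). RPN8 deviated by 0.25, -0.03, 0.39, 0.14 and 0.37 in these 5 libraries, so it was not high in La EC10 library 13. The coding length of RPN8 is 1017 bases and that of SEM1 270 bases. A fit with the coding length trend removed from each library was also run. In it RPN8 was not called at Yb EC50, and 64 of 70 called results for single genes kept their call. The part of this library-wide difference in the values of RPN8 and SEM1 was not tested beyond that fit.

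**Figure D5:**
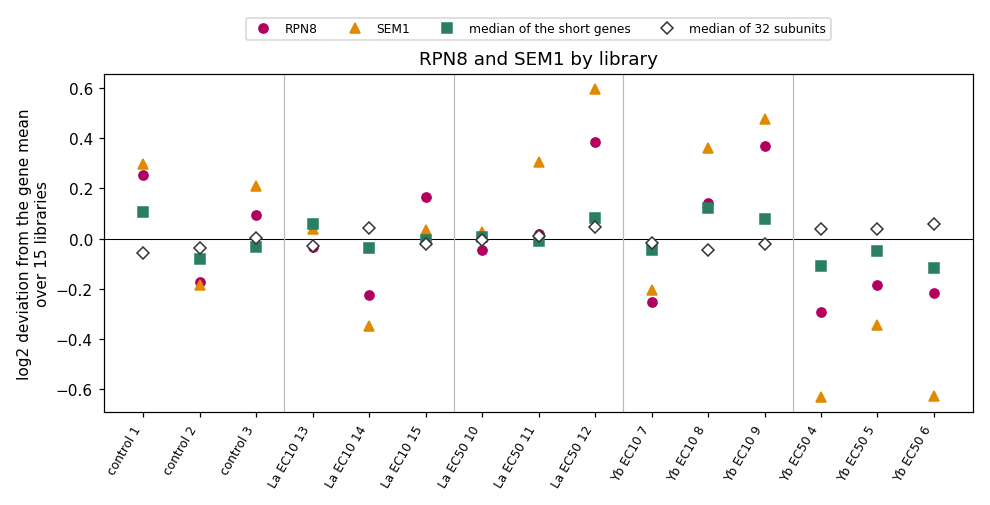
Deviation of RPN8, SEM1, the median of 684 short genes and the median of 32 subunits from their mean over 15 libraries, on the log2 scale (vertical axis), in each library (horizontal axis, by group). RPN8 and SEM1 are both low in the 3 Yb EC50 libraries and high in La EC50 library 12 and Yb EC10 library 9, while the median of the subunits stays near 0.

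The counts for the gene lists around the proteasome are to be read against the shares of all genes called higher, 10.2% at La EC10, 12.6% at La EC50, 15.2% at Yb EC10 and 20.6% at Yb EC50, and lower, 10.1%, 13%, 14% and 20.2%. Of 10 assembly chaperone genes, 1 was called higher at La EC10, close to that share, 2 at La EC50, 3 at Yb EC10 and 4 at Yb EC50, and 1 was called lower, at Yb EC50. TMA17, whose protein (also called Adc17) helps to assemble the ATPase ring under stress, was called in every comparison with control. It read 201, 217 and 229 normalized counts in control, 366, 328 and 396 in La EC10, 377, 369 and 418 in La EC50, 550.1, 422 and 525 in Yb EC10 and 657, 541 and 530.5 in Yb EC50. Every exposed library lay above the control range and the Yb groups above the La groups. The log2 changes were 0.75, 0.84, 1.20 and 1.41, each ± 0.11 (limma, highest adjusted p 0.000163, at La EC10). The TMA17 window held neither PACE nor its core. NAS6, which binds Rpt3 during assembly, rose at Yb EC10 (0.26 ± 0.07) and Yb EC50 (0.32 ± 0.07), as did NAS2, which binds Rpt5 (0.26 ± 0.09 and 0.40 ± 0.09, the first at an adjusted p just under 0.05). The call of NAS2 at Yb EC10 was lost without any 1 of 12 libraries and that of NAS6 without control library 3. PBA1, which acts in α ring assembly and was named after its values were seen, rose at La EC50 (0.26 ± 0.07) and Yb EC50 (0.21 ± 0.07). POC4, whose protein also assists assembly of the α ring, fell at Yb EC50 by 0.50 ± 0.12 on the log2 scale (limma, adjusted p 0.00504). The coding lengths of POC4 (447 bases) and TMA17 (453 bases) are in the class under 500 bases whose median was low in the Yb EC50 libraries. The part of that shift in their values was not tested beyond the fit with the coding length trend removed.

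Of 8 genes for proteins that associate with the proteasome, 2 were called higher and 1 lower at La EC10, 1 and 1 at La EC50, 1 and 1 at Yb EC10 and 2 and 2 at Yb EC50; a single gene of 8 is close to the shares of all genes. SPG5, which acts on the proteasome in stationary phase, rose in all 4 groups, by 0.43, 0.58, 0.47 and 0.79, each ± 0.11 (limma, adjusted p 0.0139, 0.00126, 0.00518 and 4.7e-05). CIC1, which is also needed for ribosome assembly, fell in all 4, by 0.34, 0.49, 0.47 and 0.40 on the log2 scale, each ± 0.11. The call of CIC1 at La EC10 was lost without any 1 of 6 libraries (highest adjusted p 0.173 in limma) and that at Yb EC50 without Yb EC50 library 4, and the call of SPG5 at La EC10 was lost without control library 3 or La EC10 library 15. HUL5, a ubiquitin ligase bound to the regulatory particle, rose at Yb EC50 by 0.29 ± 0.08 (limma, adjusted p 0.013), and ECM29, a proteasome-binding scaffold named after its values were seen, rose at La EC10 by 0.24 ± 0.07 (limma, adjusted p 0.0202). The call of HUL5 was lost without control library 3 or Yb EC50 library 4.

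The 4 ubiquitin genes split by type. UBI4, the stress gene that encodes a string of ubiquitins, read 1815, 1622 and 1696 normalized counts in control and at least 2199 in every exposed library. It rose by 0.93, 0.66, 0.72 and 1.10, each ± 0.13, at La EC10, La EC50, Yb EC10 and Yb EC50 (limma, adjusted p 0.000133, 0.00191, 0.00102 and 1.01e-05). The genes that encode ubiquitin fused to a ribosomal protein fell where called: RPS31 at Yb EC50 (-0.76 ± 0.16), RPL40A at La EC50 and Yb EC50 (-0.43 and -0.49, each ± 0.11) and RPL40B at both Yb doses (-0.30 at EC10 and -0.36 at EC50, each ± 0.10) and at La EC50 (-0.46). RPL40A and RPL40B are near-identical and all 4 share ubiquitin sequence, so the split of reads between them is uncertain. RPS31 (459 bases) and the RPL40 genes (387 bases each) are also in the class under 500 bases. The part of the shift of that class between libraries in their values was not tested beyond the fit with the coding length trend removed. The call of RPL40B at Yb EC10 was lost without any 1 of 4 libraries. UBI4 holds a PACE site, in the antisense orientation, 160 bases before its first coding base.

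Of 9 genes of ubiquitin activation and conjugation, 1 was called higher at La EC10, La EC50 and Yb EC10 and 2 at Yb EC50, which is close to the shares of all genes. UBC5, which with its close copy UBC4 serves the breakdown of short-lived and abnormal proteins, read 169, 122 and 126 normalized counts in control and 183 to 278 in the exposed libraries. It rose by 0.56, 0.67, 0.75 and 0.90, each ± 0.14 (limma, adjusted p 0.00963, 0.00224, 0.000906 and 0.000103), and UBC7, of degradation at the endoplasmic reticulum, rose at Yb EC50 by 0.29 ± 0.07. The call of UBC5 at La EC10 was lost without control library 2. Of 9 ligase genes, HRD1 rose at both Yb doses and at La EC10 (0.35 at Yb EC10, 0.41 at Yb EC50 and 0.35 at La EC10, each ± 0.11), HUL4 at Yb EC10 and Yb EC50 (0.41 and 0.64, each ± 0.14), and SAN1, of nuclear quality control, lower at La EC50 (-0.27 ± 0.08). The calls of HRD1 at La EC10 and at Yb EC10 were each lost without any 1 of 5 libraries and that at Yb EC50 without Yb EC50 library 4, and those of HUL4 at Yb EC10 and of SAN1 were each lost without any 1 of 4. Of 11 genes of Cdc48, the segregase that delivers substrates, and of shuttle factors, 0 were called in limma at La EC10, La EC50 or Yb EC10, where 1, 0 and 1 had an unadjusted p under 0.05, and 4 rose at Yb EC50, against 20.6% of all genes: DDI1 (0.38 ± 0.09), DOA1 (0.22 ± 0.06), NPL4 (0.22 ± 0.08) and UFD1 (0.20 ± 0.07). The call of NPL4 was lost without any 1 of 9 libraries (highest adjusted p 0.157 in limma) and that of UFD1 without any 1 of 3. A shuttle factor gene, RAD23, named after its values were seen, fell there by 0.19 ± 0.07 on the log2 scale (limma, adjusted p 0.0335).

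Outside the members, 44 genes held a full PACE in their window, 43 of which were tested. Of these, 5 were called higher at La EC10, 6 at La EC50, 6 at Yb EC10 and 9 at Yb EC50. These counts are close to the shares of all genes called higher (10.2%, 12.6%, 15.2% and 20.6%). In the same order, 2, 2, 4 and 5 were called lower. Each is a smaller share than that of all genes called lower (10.1%, 13%, 14% and 20.2%), a difference that was not tested. The median log2 changes of the 43 genes were 0.07, 0.09, 0.06 and 0.08. Those over all genes were 0.01, 0.01, 0.00 and -0.02, and those of the 33 members 0.04, 0.05, 0.02 and 0.08.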

How the data were processed

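The deposited table held the signal of each library for 6600 genes, which the authors made from gene counts with a size factor for each library, and 5 columns of group means, which were not used. The submitters' processing notes name build R64, HTSeq 0.6.1p1, TopHat2 2.1.1, DESeq2 1.14.1 and FastQC 0.67, with no roles or order. Libraries were strand-specific per the labels' protocols; the strand setting of the counting is not given in the sources used here. No member overlaps another gene in the annotation used.

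Divided by what 1 read is worth in each library (0.901 to 1.22), 100% of values came out whole within a tolerance of 0.01, so reads were recovered for the count tests. Column names gave the group and a running number, by which libraries are named. RefSeq R64 gave coordinates (1-based), coding lengths and sequences, and 5917 of 6600 identifiers matched.

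The main tests used limma 3.58.1 in R 4.3.3, with 2-sided contrasts and a mean-variance trend on log2(normalized count + 1), a scale that understates changes of low genes, in a single fit to 15 libraries over the 5567 genes with a mean of at least 10. Adjusted p-values are Benjamini-Hochberg values over those genes. Alternatives used edgeR 4.0.16 and DESeq2 1.42.0 on recovered reads, other scalings, pseudocount 5, no filter, a coding length correction, smaller fits and leaving out each library. An exact permutation test of 3 against 3 libraries cannot reach an adjusted threshold and was not used. The limma script was tested on simulated data with changes larger than those of any member. That simulation therefore gives no measure of how often changes as small as those of the members are called.

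Earlier results of these data were known when the members, related lists and tests were chosen. The members were taken by systematic name, with no measured value used. Any member could be named; in full, the 4 called with the largest change in each direction per comparison, and per subcomplex the highest and lowest change at each EC50. Of each related list, up to 4 called genes with the largest change were named.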

Additional observations from a re-analysis of the deposited data

Results flagged for a closer look

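These results stood out because the effect of the metals differed between La and Yb at the same effect level, by limma's test of that difference. Among the members at EC50, La against Yb gave -0.20 ± 0.06 on the log2 scale for PRE4 (adjusted p 0.0316) and -0.26 ± 0.07 for RPT3 (adjusted p 0.0194). Among the assembly chaperone genes at EC50, TMA17 differed by -0.56 ± 0.11, NAS2 by -0.32 ± 0.09, NAS6 by -0.22 ± 0.07 and POC4 by 0.37 ± 0.12, and at EC10 TMA17 differed by -0.45 ± 0.11 (adjusted p 0.0198). SEM1 differed by 0.84 ± 0.18 at EC50 (adjusted p 0.00369), and the difference between its dose steps was 1.15 ± 0.26 (adjusted p 0.0373), a call lost without any 1 of 9 libraries. HUL5 differed by -0.31 ± 0.08, UBI4 by -0.44 ± 0.13, RPS31 by 0.50 ± 0.16, UBC7 by -0.26 ± 0.07 and HUL4 by -0.43 ± 0.14 at EC50. Of these differences, those of TMA17 and SEM1 at EC50 kept their call without any single library, with highest adjusted p-values of 0.0118 and 0.0254 in limma.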

How the results depend on the processing

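With equal totals per library, members called higher numbered 1 at La EC10, 12 at La EC50, 1 at Yb EC10, 25 at Yb EC50 and 2 for Yb EC50 against Yb EC10, and the F test called 18. With quantile normalization 8 were called higher at Yb EC50, against 17.8% of all genes. With edgeR 1 was called higher at La EC50 (RPN4), against 11.4% of all genes. With DESeq2, 1 member was called higher for Yb EC50 against Yb EC10, against 2.35% of all genes. For the difference between dose steps it called 1 higher, against 4.20% of all genes. The likelihood ratio test of DESeq2 over the groups, in place of the F test, called 5, and no share of all genes was taken for it. Removing the coding length trend gave 1 higher for Yb EC50 against Yb EC10, against 0.966% of all genes. With only the groups compared in the fit, 1 member was higher at La EC50 (RPT2), 1 lower at Yb EC50 (RPN8) and 1 higher for La EC50 against Yb EC50 (RPN8). The shares of all genes called in the same directions were 13.3%, 20.6% and 12.4%. Leaving out single libraries gave 0 to 3 members higher at La EC50, 1 to 6 at Yb EC50, 0 to 1 for La EC50 against La EC10, 0 to 2 higher and 0 to 1 lower for Yb EC50 against Yb EC10, 0 to 1 higher and 0 to 3 lower for La EC50 against Yb EC50, 0 to 2 for the difference between dose steps and 0 to 4 for the F test. No shares of all genes were taken for the fits that left out a library. The count at La EC50 was 0 without control library 2 or 3 or La EC50 library 10 or 12 and 1 without control library 1, and that at Yb EC50 was 1 without control library 3 and 2 without control library 1 or Yb EC50 library 4 or 5. The cause of these shifts was not tested, and some of the fits also held fewer libraries. No paired analysis was possible because the columns carry a running number and not the replicate number of the labels. Of 70 called results for single genes, between 56 and 70 kept their call under the 8 alternatives other than leaving out libraries, and 0 reversed. With 3 libraries a group, a gene that was not called may still have changed by any amount within its 95% interval.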
